A study of Mus musculus with 9 samples.

Results

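The genes described here encode lysosomal hydrolases and proteins of the lysosomal membrane. They are 31 of the 23420 genes in the deposited table and were taken by gene name. Each of the 31 had enough reads to be tested, among 9564 genes in all (at least 10 normalised reads in 3 or more libraries). By role they are 10 glycosidases, 5 sulfatases, 5 hydrolases of lipids and peptides, 3 cofactors or luminal proteins that are not enzymes, 4 membrane glycoproteins and 4 membrane transporters or channels.

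Libraries came from RAW264, a mouse macrophage-like cell line that can be turned into osteoclasts by the cytokine RANKL, and no culture in this series received RANKL. Control cells and 2 cell clones with a CRISPR/Cas9 mutation in the zinc finger gene Zscan10 had 3 libraries each. Per the labels the mutation of clone KO #1 (KO1 below) lies in exon 2 and that of KO #2 (KO2 below) in exon 5. The names given to the raw reads carry those numbers the other way round, so the exon of each clone is uncertain, and the results below use the clone names only. Each mutant group is 1 clone grown from a single sorted cell, how the Control cells were derived is not stated, and an effect of the mutation cannot be told apart from a difference between clones.

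Lysosomes are acidic organelles in which hydrolases break down lipids, glycans and proteins brought in by endocytosis, phagocytosis or autophagy. Most of the soluble hydrolases are tagged with mannose 6-phosphate in the Golgi and carried to the lysosome by mannose 6-phosphate receptors, while heavily glycosylated membrane proteins line the organelle. Macrophages are rich in lysosomes, and osteoclasts release lysosomal contents onto bone through the ruffled border. Many lysosomal genes carry an E-box that is bound by the MiT transcription factors TFEB, TFE3 and MITF.

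Each library held 1821703 to 2458539 recovered reads, and 1045 to 16181 reads per gene over all 9 libraries lay behind the members called below with a log2 change of at least 0.3. Zscan10 had 0 reads in all 9 libraries, so its reads check no label. Of 13 macrophage markers 11 were in the table, each with a group mean of at least 10 normalised reads in every group, and their summed level was 29976 to 31059 in Control, 43039 to 44052 in KO1 and 38155 to 39663 in KO2. Most of that sum was Lyz2 (means of 17632, 30181 and 27720), while by limma 6 of the 11 rose and 3 fell in KO1 (median log2 change 0.17) and 1 rose and 7 fell in KO2 (-0.23). Of the 16 markers of other cells 14, 14 and 13 had 0 reads in Control, KO1 and KO2, and the summed level of all 16 was at most 2.36 in any library. The 8 osteoclast markers summed to 24.1 to 27.0 in Control, 21.6 to 33.9 in KO1 and 71.7 to 78.3 in KO2, with Calcr at 0 reads in every group. Only 2 of them had enough reads to be tested. Acp5 rose in both clones by limma (means of 1.85, 8.1 and 31.7 in Control, KO1 and KO2). Dcstamp was called in neither against Control (17.6, 13.5 and 27.7). Among those not tested, Ocstamp had means of 1.53, 1.7 and 8.99 in Control, KO1 and KO2, and Atp6v0d2 of 1.96, 1.69 and 5.61. Itgb3, also not tested, went from a mean of 2.32 in Control to 0 in both clones, on 7 reads over all libraries. Ctsk and Mmp9 had group means of at most 1.35 and 0.998. The part of all these markers in the results below was not tested. In such bulk libraries fewer cells of a kind and less RNA per cell cannot be told apart.

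Levels between genes were compared per length, in FPKM (fragments per kilobase of transcript, scaled for depth), which the authors scaled within each table of 2 groups. In Control the most abundant member was Lamp1, a major glycoprotein of the lysosomal membrane, at 381 ± 1.33 FPKM (SD, n = 3). It was followed by Psap, the precursor of the saposins that help hydrolases reach their lipid substrates, at 336 ± 9.28 FPKM. Lipa, the lysosomal acid lipase that frees cholesterol and fatty acids from lipoprotein lipids, came after it at 247 ± 8.69 FPKM. Gusb (beta-glucuronidase) at 210 ± 8.05 and Grn (progranulin) at 155 ± 12.3 FPKM came next, and the libraries of each of these genes did not overlap those of the gene below it. At the low end stood Arsa (arylsulfatase A) at 4.18 ± 0.336 and Idua (alpha-L-iduronidase) at 3.51 ± 0.822 FPKM, whose libraries overlapped. From the lowest to the highest member the Control level spanned 109-fold. Of the 30 neighbouring pairs in this order 14 did not overlap, and 7 members lay over 100 FPKM and 7 under 10 FPKM.

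**Figure D1:**
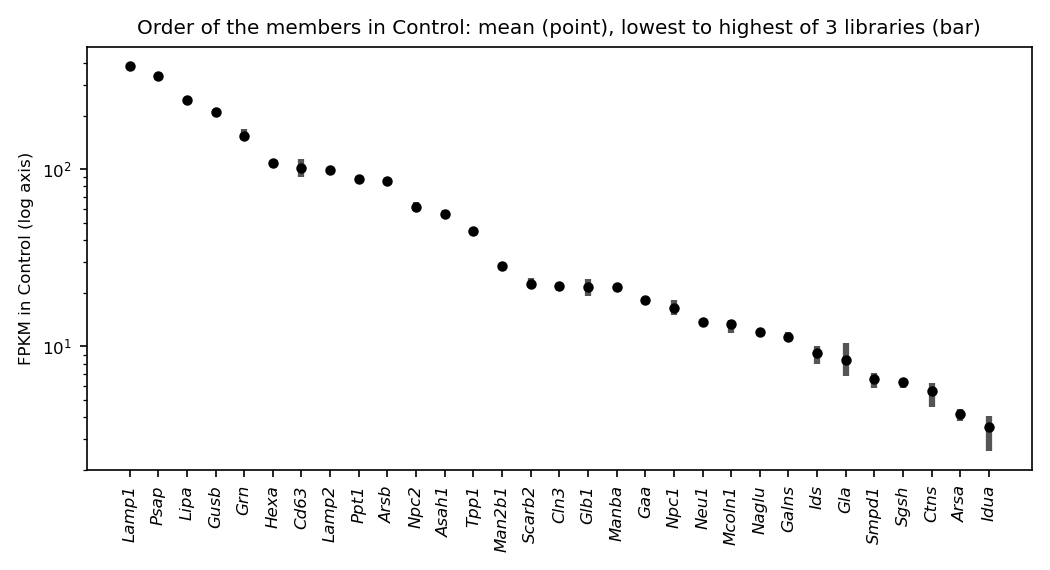
FPKM of the 31 members in the 3 Control libraries on a log axis, ordered by mean (points), with bars from the lowest to the highest library. Levels run from 3.51 FPKM for Idua to 381 FPKM for Lamp1, and many neighbours in the lower part of the order overlap.

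The 31 genes together took 0.541%, 0.555% and 0.555% of the normalised reads in the Control libraries. Their share was 0.574%, 0.577% and 0.555% in the KO1 libraries and 0.547%, 0.544% and 0.539% in the KO2 libraries. In KO1, 2 libraries lay above the Control range and 1 within it, and in KO2, 2 lay within it and 1 just below. Every KO1 library had a higher share than every KO2 library. Single members moved in different directions, as the plot of every member by library shows.

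**Figure D2:**
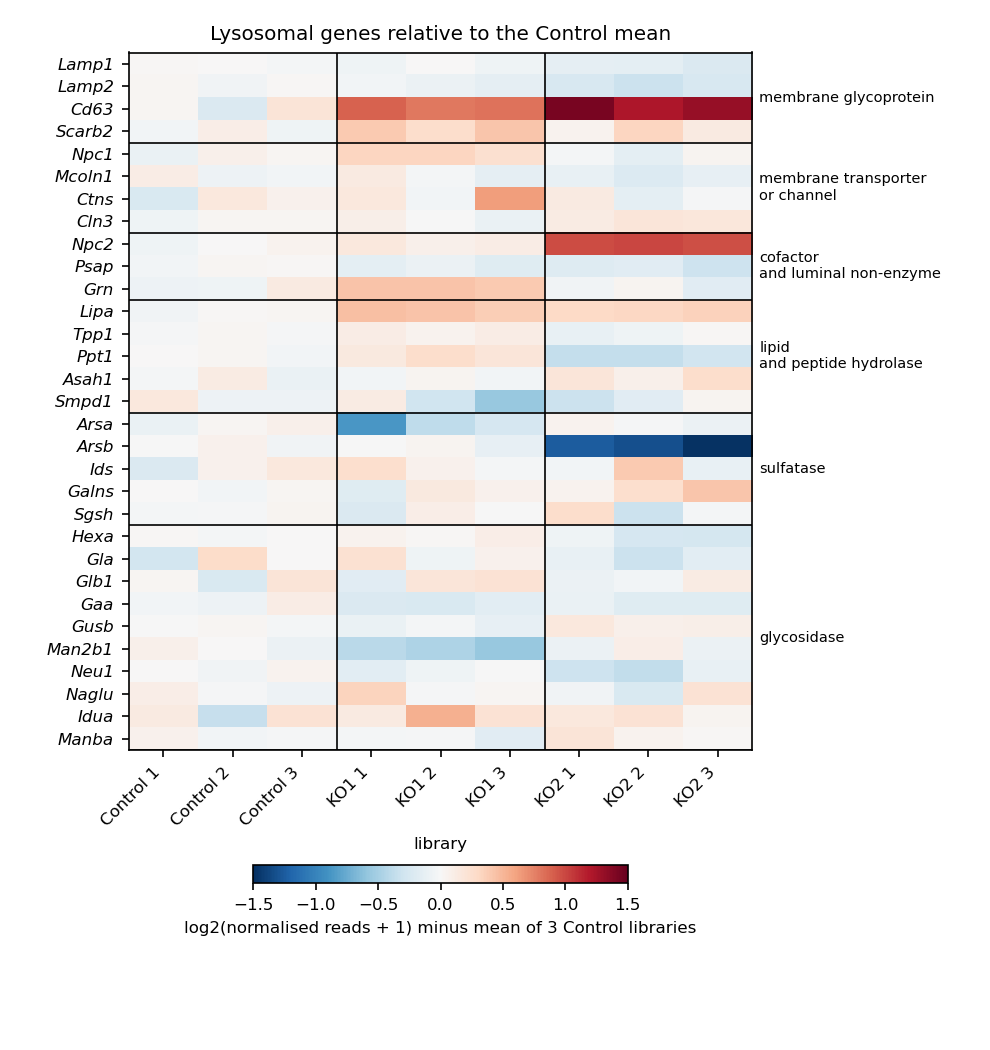
Each member (rows, grouped by role) in each library (columns), as log2(normalised reads + 1) minus the mean of the 3 Control libraries. Cd63 is higher in all 6 clone libraries, Npc2 is higher and Arsb lower in the 3 KO2 libraries, and most other rows stay near the Control mean.

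In KO1, 6 members rose and 2 fell against Control by limma on log2(normalised reads + 1), where a call is an adjusted p under 0.05 (Benjamini-Hochberg, all 9564 genes). That is 25.8% of the members, and 20.8% of all tested genes were called in this comparison (10.5% higher and 10.2% lower). In KO2, 3 members rose and 6 fell, 29.0% of the members against 22.5% of all genes (10.7% higher and 11.8% lower). The median log2 change of the members was 0.01 in KO1 and -0.024 in KO2, beside -0.0066 and -0.0087 over all tested genes. Both shares lie near the background, and the results below are about single members. The 14 members called in at least 1 comparison had Control means of 102 to 1813 normalised reads (median 522), and the 17 members called in none had 25.6 to 340 (median 58.8). The labels do not tell whether libraries of one group are separate cultures, and a p-value here measures only how far these libraries spread, which may be technical. That spread was small: recovered reads of 2 libraries of a group differed by a chi-square of 1.05 to 1.29 per degree of freedom, little above counting error alone.

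**Figure D3:**
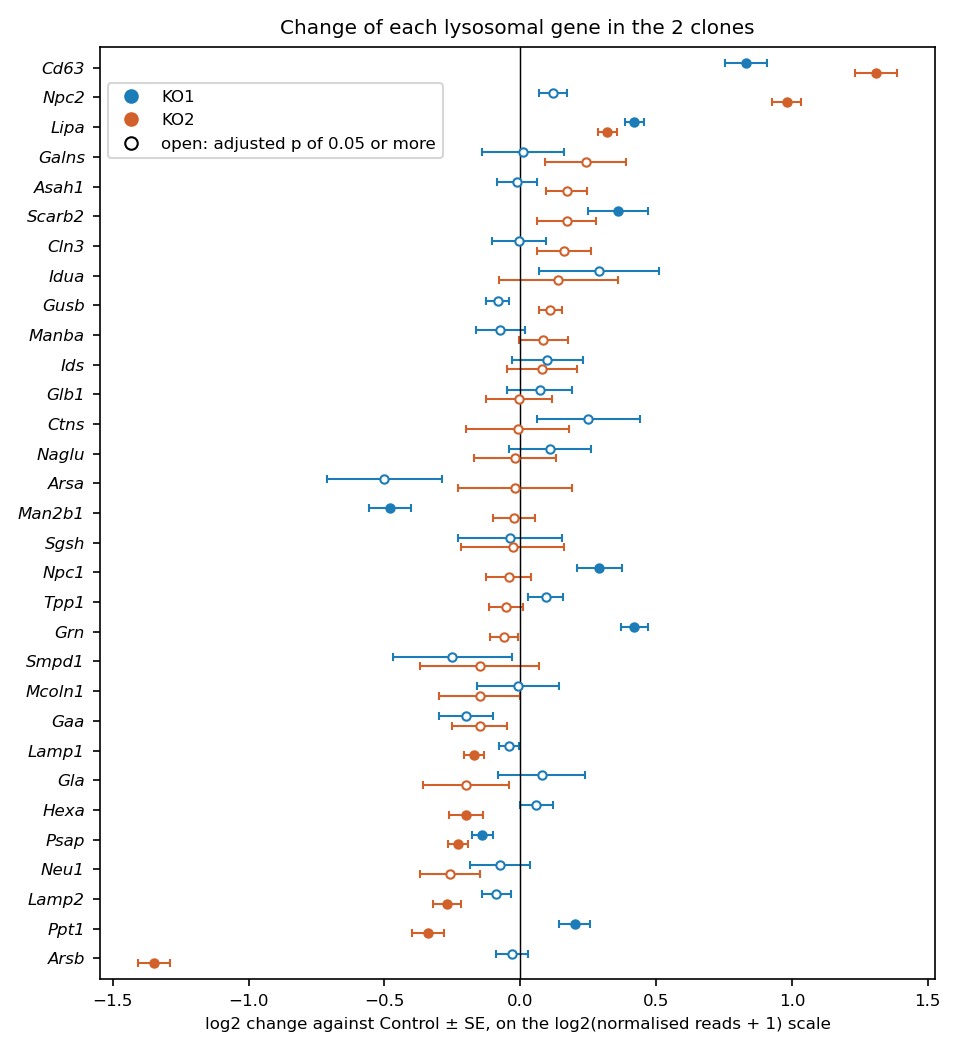
Log2 change of each member against Control in KO1 and KO2, with bars of 1 SE. Filled points passed an adjusted p of 0.05. Cd63 lies highest, at 0.83 in KO1 and 1.31 in KO2, and Arsb lowest, at -1.35 in KO2 and -0.03 in KO1.

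Promoter sequences are shown for Arsb, Cd63 and Npc2, the members with the largest changes, for Lipa, which rose in both clones, and for Lamp1 and Mcoln1, which carry the MiT E-box. Each is the 250 bases before the gene start that RefSeq gives on the mouse genome build GRCm38.p6, written on the strand of the gene. Capitals mark the 7-letter E-box TCACGTG or its reverse complement CACGTGA, the core of the site bound by the MiT factors. The E-box was searched on both strands, as was the related M-box TCATGTG (reverse complement CACATGA). Arsb lies on chromosome 13 (chr13:93771429-93771678, plus strand), Npc2 on chromosome 12 (chr12:84773113-84773362, minus strand), Cd63 on chromosome 10 (chr10:128909095-128909344, plus strand) and Lipa on chromosome 19 (chr19:34527475-34527724, minus strand). Lamp1 (chr8:13158911-13159160, plus strand) and Mcoln1 (chr8:3500269-3500518, plus strand) lie on chromosome 8.
Arsb: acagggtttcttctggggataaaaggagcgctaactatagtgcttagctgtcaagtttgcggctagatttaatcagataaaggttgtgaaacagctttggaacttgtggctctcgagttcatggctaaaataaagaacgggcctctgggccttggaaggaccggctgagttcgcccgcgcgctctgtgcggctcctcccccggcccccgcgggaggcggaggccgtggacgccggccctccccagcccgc
Npc2: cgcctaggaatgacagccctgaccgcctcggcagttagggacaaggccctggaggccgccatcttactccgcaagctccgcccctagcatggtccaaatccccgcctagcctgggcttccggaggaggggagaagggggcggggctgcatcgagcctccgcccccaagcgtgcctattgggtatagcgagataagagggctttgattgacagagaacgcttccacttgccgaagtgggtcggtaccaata
Cd63: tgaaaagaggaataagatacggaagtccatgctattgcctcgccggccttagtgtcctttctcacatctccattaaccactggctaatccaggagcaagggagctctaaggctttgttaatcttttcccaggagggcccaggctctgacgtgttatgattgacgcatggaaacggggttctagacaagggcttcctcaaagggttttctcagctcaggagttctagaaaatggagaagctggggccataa
Lipa: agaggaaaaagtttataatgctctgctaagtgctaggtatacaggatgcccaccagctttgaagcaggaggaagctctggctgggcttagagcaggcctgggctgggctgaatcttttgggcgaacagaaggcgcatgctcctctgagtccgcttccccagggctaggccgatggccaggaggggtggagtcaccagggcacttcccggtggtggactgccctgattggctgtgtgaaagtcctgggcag
Lamp1: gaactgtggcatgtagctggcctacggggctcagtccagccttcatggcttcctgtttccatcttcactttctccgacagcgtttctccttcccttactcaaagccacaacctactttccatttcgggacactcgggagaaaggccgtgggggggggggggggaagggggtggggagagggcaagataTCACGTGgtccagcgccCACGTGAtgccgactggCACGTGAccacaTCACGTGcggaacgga
Mcoln1: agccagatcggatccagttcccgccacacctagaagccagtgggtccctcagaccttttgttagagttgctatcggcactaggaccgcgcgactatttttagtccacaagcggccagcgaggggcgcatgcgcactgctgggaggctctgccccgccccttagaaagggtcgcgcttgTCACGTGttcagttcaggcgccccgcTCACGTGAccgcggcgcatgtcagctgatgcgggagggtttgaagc

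Of the 31 members 28 had a promoter in the RefSeq table, and 9 of them held the E-box and 3 the M-box. Among all 32851 promoter windows of the same length 3.13% held the E-box and 3.25% the M-box. The E-box was in 1 of the 13 matched members that were called in a comparison, Lamp1, and in 8 of the 15 that were not. The M-box was in Grn and Scarb2, which were called, and in Gla, which was not. Npc1, which was called, had no promoter in the RefSeq table. Members called in a comparison also had more reads than the others (median Control means of 522 and 58.8), and the split was not tested. No E-box or M-box letters were found in the windows of Arsb, Npc2, Cd63 and Lipa. The RefSeq start lies 426 bases downstream of that of the gene model used for counting for Cd63 and 1044 downstream for Cln3. For Idua it lies 8775 bases upstream. The Cd63 and Cln3 windows thus lie inside the counted gene models, and the bases before those models' own starts were not searched. For Grn the RefSeq start lies 185 bases downstream, so most of its window also lies inside the counted gene model. Such matches describe letters in a window and not binding.

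Among the membrane glycoproteins Cd63, a tetraspanin of late endosomes, lysosomes and exosomes (chromosome 10, 128908919 to 128912818, plus strand, mm10), changed most. Its normalised reads were 167, 141 and 188 in Control. They were 305, 286 and 290 in KO1 and 442, 381 and 409 in KO2. The 3 groups did not overlap, and every KO2 library lay above every KO1 library. Cd63 rose 1.77-fold in KO1 (log2 change 0.83 ± 0.078 SE, limma adjusted p = 2.69e-13) and 2.48-fold in KO2 (1.31 ± 0.078, adjusted p = 2.86e-21). The difference between the clones was itself called (0.48 ± 0.078, adjusted p = 1.09e-06). RefSeq lists a pseudogene of Cd63, and reads of near-identical copies could be assigned to either. Of the 33 tested genes that start within 1 Mb of Cd63, 2 rose and 5 fell in KO1 and 1 rose and 5 fell in KO2, with median log2 changes of 0.0031 and -0.02.

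Lamp1 and Lamp2, the major sialoglycoproteins of the lysosomal membrane, fell slightly in KO2. Lamp1 had 1788, 1783 and 1739 normalised reads in Control, 1699, 1770 and 1690 in KO1, and 1613, 1595 and 1520 in KO2. The KO2 libraries lay below all others, and the fall was 1.12-fold (log2 change -0.17 ± 0.036, limma adjusted p = 0.000188). Lamp2, which also serves chaperone-mediated autophagy, had 615, 584 and 613 reads in Control, 589, 566 and 550 in KO1, and 513, 484 and 509 in KO2. Its fall in KO2 was 1.2-fold (-0.27 ± 0.052, adjusted p = 4.97e-05). In KO1 neither gene was called, with log2 changes of -0.042 ± 0.036 for Lamp1 and -0.088 ± 0.052 for Lamp2. In FPKM the KO1 mean of Lamp2 lay above Control, at 104 ± 6.24 against 98.7 ± 2.36. Scarb2 (LIMP-2), the membrane protein that carries glucocerebrosidase to lysosomes, had 99.4, 110 and 97.6 reads in Control, 135, 123 and 137 in KO1, and 106, 128 and 112 in KO2. It rose 1.29-fold in KO1 (0.36 ± 0.11, adjusted p = 0.00989). That call was lost without Control replicate 3 (adjusted p = 0.0503), without KO1 replicate 3 (0.051) and by DESeq2 (0.0816). In KO2 the log2 change of Scarb2 was 0.17 ± 0.11, with overlapping libraries (adjusted p = 0.303).

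The pair that passes cholesterol out of the lysosome, Npc2 and Npc1, was called in different clones. Npc2, the soluble protein that binds cholesterol in the lumen (chromosome 12, 84754559 to 84773112, minus strand), had 405, 426 and 441 normalised reads in Control, 474, 445 and 458 in KO1, and 835, 853 and 830 in KO2. The KO2 libraries stood far above the other 6. Npc2 rose 1.98-fold in KO2 (log2 change 0.98 ± 0.052, limma adjusted p = 2.82e-23) and 1.83-fold between KO1 and KO2 (0.87 ± 0.052, adjusted p = 5.00e-21). In KO1 its libraries lay just above those of Control without passing the test (0.12 ± 0.052, adjusted p = 0.118). Chromosome 12 as a whole shifted in level: over its 347 tested genes the median was 0.28 in KO2 (157 higher and 13 lower) and -0.28 in KO1 (15 higher and 152 lower). The 27 tested genes starting within 1 Mb of Npc2 had medians of 0.38 and -0.29. Isca2, an iron-sulfur cluster assembly gene on the other strand whose start lies next to that of Npc2, had 44.1 ± 7.55 reads in Control, 35.2 ± 7.77 in KO1 and 57.5 ± 5.93 in KO2 and was called in neither clone against Control (adjusted p = 0.225 and 0.134). Between the clones Isca2 was 1.63-fold higher in KO2 (0.71 ± 0.18, adjusted p = 0.00188), the direction in which Npc2 differed. The part of the chromosome in the rise of Npc2 was not tested, and no other member lies on chromosome 12.

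Npc1, the membrane protein that receives cholesterol from Npc2, had 172, 195 and 189 normalised reads in Control, 231, 231 and 218 in KO1, and 182, 167 and 191 in KO2. The KO1 libraries lay above all others. Npc1 rose 1.22-fold in KO1 (log2 change 0.29 ± 0.083, limma adjusted p = 0.00659), a call lost without Control replicate 1 (adjusted p = 0.0654) and by DESeq2 (0.0584). In KO2 its log2 change was -0.042 ± 0.083, and the difference between the clones was called (-0.33 ± 0.083, adjusted p = 0.00127). The gene model of Npc1 shares 164 exon bases with the opposite-strand gene 3110002H16Rik, and whether the counting used strand is not given in the sources used here. The other transporters and channels were called in no comparison. They are Mcoln1 (the calcium channel TRPML1), Ctns (the cystine exporter) and Cln3 (a membrane protein lost in juvenile Batten disease). Their Control means were 58.1 ± 4.12, 36.2 ± 5.05 and 123 ± 4.34 normalised reads.

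**Figure D4:**
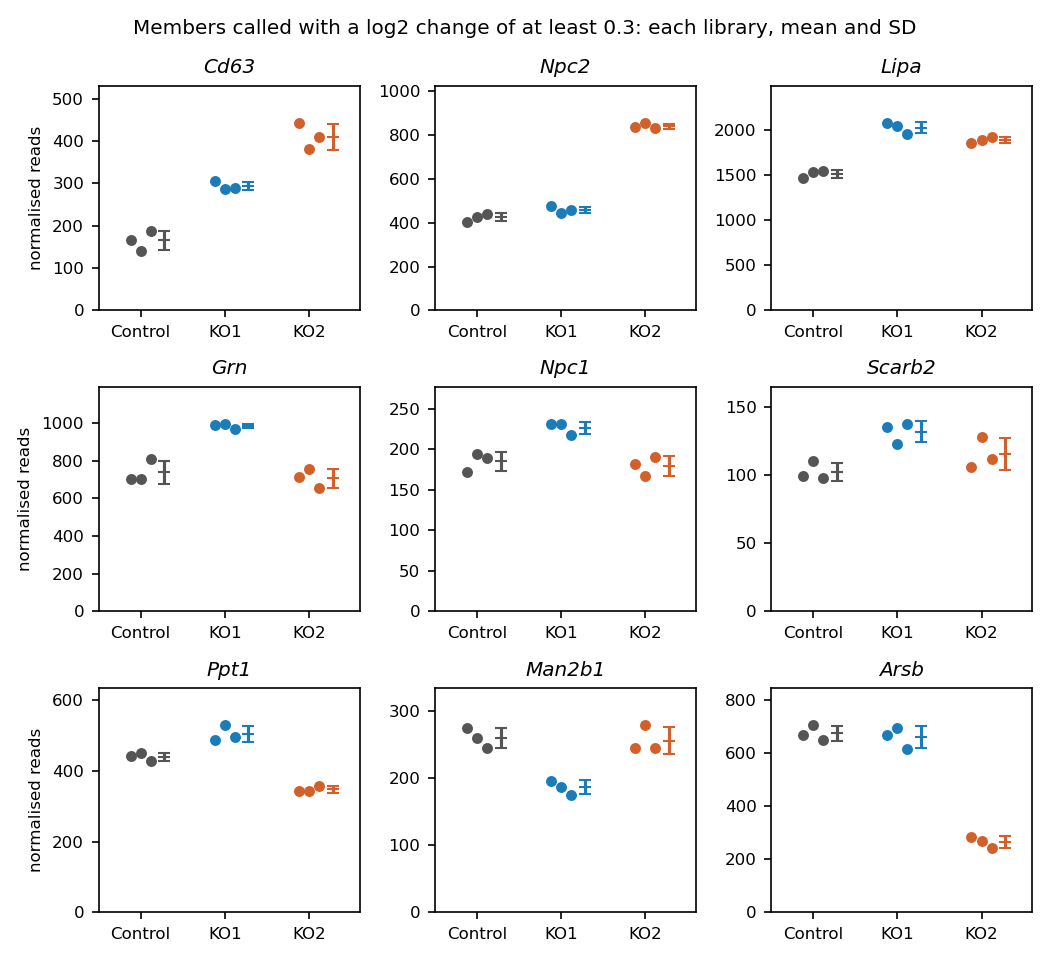
Normalised reads of the 9 members called with a log2 change of at least 0.3 in a comparison, on axes from 0. Each point is a library, and the line and bar beside the points give mean and SD of 3 libraries. Arsb stands at 241 to 284 in KO2 against 617 to 704 in the other 6 libraries, and Npc2 at 830 to 853 in KO2 against 405 to 474.

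Among the cofactors Grn, the precursor of the granulins (chromosome 11, 102430322 to 102436809, plus strand), had 701, 703 and 811 normalised reads in Control, 988, 993 and 971 in KO1, and 712, 755 and 655 in KO2. It stood higher in the KO1 libraries than in any other, and the KO2 libraries overlapped Control. Grn rose 1.33-fold in KO1 (log2 change 0.42 ± 0.051, limma adjusted p = 1.16e-09) and had a log2 change of -0.06 ± 0.051 in KO2. The clones differed (-0.48 ± 0.051, adjusted p = 1.21e-11). Psap fell in both clones, from 1760, 1852 and 1828 reads in Control to 1639, 1703 and 1594 in KO1 and 1584, 1609 and 1460 in KO2. The fall was 1.10-fold in KO1 (-0.14 ± 0.038, adjusted p = 0.00373, with FPKM 0.0676) and 1.17-fold in KO2 (-0.23 ± 0.038, adjusted p = 2.48e-06), and the clones were not shown to differ (-0.086 ± 0.038, adjusted p = 0.0859).

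Among the hydrolases of lipids and peptides Lipa (chromosome 19, 34492316 to 34527474, minus strand) rose in both clones. Its normalised reads were 1461, 1531 and 1544 in Control, 2068, 2037 and 1951 in KO1, and 1853, 1881 and 1921 in KO2. All 6 clone libraries lay above Control. The rise was 1.34-fold in KO1 (log2 change 0.42 ± 0.035, limma adjusted p = 7.39e-15) and 1.25-fold in KO2 (0.32 ± 0.035, adjusted p = 6.43e-11). Both comparisons use the same Control libraries. The clones differed by -0.10 ± 0.035 (adjusted p = 0.0302). That call was lost without KO1 replicate 1 (0.14), KO1 replicate 2 (0.0996), KO2 replicate 1 (0.118) or KO2 replicate 2 (0.0772). It was also lost by DESeq2 (0.0861) and by limma with no filter on low values (0.0571). Lipa lies beside a group of interferon-induced genes, and its nearest tested neighbour Ifit2 had 29.1 ± 6.55 normalised reads in Control, 95.1 ± 12.7 in KO1 and 14.2 ± 2.17 in KO2. Ifit2 rose in KO1 (1.69 ± 0.20, adjusted p = 9.34e-10) and fell in KO2 (-0.98 ± 0.20, adjusted p = 0.000129). The part of the neighbouring genes in the rise of Lipa was not tested.

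Ppt1, the thioesterase that removes palmitate from proteins and is lost in infantile Batten disease, moved in opposite directions. It had 442, 450 and 427 normalised reads in Control, 488, 529 and 497 in KO1, and 343, 343 and 359 in KO2. The 3 groups did not overlap. Ppt1 rose 1.15-fold in KO1 (log2 change 0.20 ± 0.058, limma adjusted p = 0.00839) and fell 1.26-fold in KO2 (-0.34 ± 0.058, adjusted p = 5.03e-06), with a difference between the clones of -0.53 ± 0.058 (adjusted p = 2.57e-11). The rise in KO1 was lost without KO1 replicate 2 (adjusted p = 0.0776) and by DESeq2 (0.0532). Tpp1 (tripeptidyl peptidase), Asah1 (acid ceramidase) and Smpd1 (acid sphingomyelinase) were called in no comparison, at Control means of 340 ± 6.82, 254 ± 20.5 and 32.2 ± 3.08 reads. Asah1 had a log2 change of 0.17 ± 0.074 in KO2 (adjusted p = 0.0849) and passed without Control replicate 2 (0.24, adjusted p = 0.029) and without KO2 replicate 2 (0.22, adjusted p = 0.0465).

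Of the 5 sulfatases 1 was called. Arsb (arylsulfatase B, chromosome 13, 93771679 to 93943016, plus strand) removes sulfate from dermatan and chondroitin sulfate, and its loss causes a mucopolysaccharidosis in people. Its normalised reads were 669, 704 and 648 in Control, 669, 695 and 617 in KO1, and 284, 270 and 241 in KO2. The Control and KO1 libraries overlapped, and the highest KO2 library lay below the lowest of the other 6. Arsb fell 2.54-fold in KO2 (log2 change -1.35 ± 0.059, limma adjusted p = 3.18e-27) and was 0.401 times as high in KO2 as in KO1 (-1.32 ± 0.059, adjusted p = 6.00e-27). In KO1 its log2 change was -0.03 ± 0.059. None of the 7 tested genes starting within 1 Mb of Arsb was called by limma in either clone, and their median log2 changes were -0.047 in KO1 and 0.03 in KO2. The Arsa reads in KO1 lay below those in Control, at 23.3 ± 5.16 against 32.8 ± 2.1, without passing the test (-0.50 ± 0.21, adjusted p = 0.0926). Ids (iduronate 2-sulfatase), Galns (N-acetylgalactosamine 6-sulfatase) and Sgsh (heparan N-sulfatase) had Control means of 94.7 ± 12.3, 57.4 ± 1.4 and 40.8 ± 1.02 reads and log2 changes between -0.038 and 0.24 against Control.

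**Figure D5:**
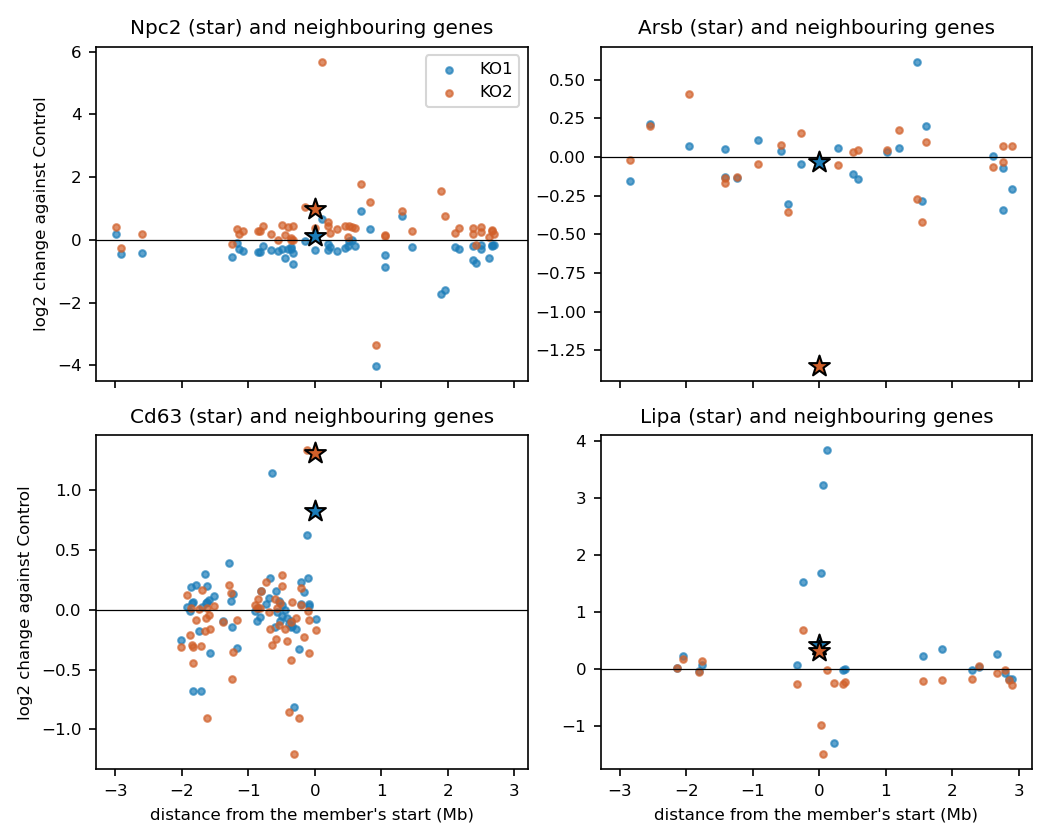
Log2 change against Control of Npc2, Arsb, Cd63 and Lipa (stars) and of tested genes that start within 3 Mb on either side (points), by distance from the start of the member in Mb. Genes around Npc2 lie mostly above 0 in KO2 and below 0 in KO1, the KO2 star of Arsb lies below all points around it, and several genes beside Lipa lie far above 0 in KO1.

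Of the 10 glycosidases 1 fell in KO1 and 1 in KO2. Man2b1 (lysosomal alpha-mannosidase) had 274, 260 and 244 normalised reads in Control, 196, 187 and 175 in KO1, and 244, 278 and 244 in KO2. The KO1 libraries lay below all others. Man2b1 fell 1.4-fold in KO1 (log2 change -0.48 ± 0.078, limma adjusted p = 1.57e-06), had a log2 change of -0.024 ± 0.078 in KO2, and differed between the clones (0.46 ± 0.078, adjusted p = 3.12e-06). Hexa, the alpha subunit of the beta-hexosaminidase that degrades GM2 ganglioside, had 420, 407 and 418 reads in Control, 432, 420 and 445 in KO1, and 397, 348 and 345 in KO2. It fell 1.14-fold in KO2 (-0.20 ± 0.061, adjusted p = 0.0128), a call lost without KO2 replicate 2 (adjusted p = 0.0803), without KO2 replicate 3 (0.0887), by DESeq2 (0.125) and with FPKM (0.0704). Gusb had 933, 958 and 915 reads in Control, 872, 918 and 857 in KO1, and 1047, 988 and 995 in KO2. Neither clone was called for Gusb against Control (adjusted p = 0.179 in KO1 and 0.0585 in KO2), though KO2 passed by edgeR (adjusted p = 0.0406) and voom (0.0367), and KO2 lay above KO1 (0.19 ± 0.043, adjusted p = 0.000309).

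The 7 other glycosidases were called in no comparison. They are Gla (alpha-galactosidase A), Glb1 (beta-galactosidase), Gaa (acid alpha-glucosidase), Neu1 (sialidase), Naglu, Idua and Manba (beta-mannosidase). Neu1 had a log2 change of -0.26 ± 0.11 in KO2 (adjusted p = 0.081), which passed without KO2 replicate 3 (-0.34, adjusted p = 0.0375). The Glb1 gene model shares 151 exon bases with Tmppe on the same strand. Over all 17 members called in no comparison log2 changes ran from -0.50 to 0.29 in KO1 and from -0.26 to 0.24 in KO2, with SE of 0.063 to 0.22. For the low members among them a change as large as those of Grn or Man2b1 could lie within the error.

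Between the clones 4 members were higher and 8 lower in KO2 than in KO1, 38.7% of the members beside 26.5% of all tested genes (12.9% higher and 13.5% lower). The median log2 difference was -0.10 for the members and 0.0028 for all tested genes. The authors' deposited tables gave a q-value under 0.05 to 8 of the 29 members with a test status of OK in KO1 (27.6%, beside 21.5% of all such genes) and to 8 of 30 in KO2 (26.7%, beside 23.9%). Of the 8 and 9 members called by limma, 7 and 7 were among them. The authors' deposited tables also had a q-value under 0.05 for Npc2 in KO1 and Asah1 in KO2, and not for Psap in either clone or Lamp1 in KO2. The authors' deposited table of normalised reads also holds q-values that, by its name, set both clones together against Control. There 2 of the 31 members had a q-value under 0.05 in the authors' deposited table, Cd63 (1.75e-08) and Lipa (0.00116), beside 2.24% of all 23420 genes. Those 23420 include genes with too few reads for limma, which tested 9564, while all 31 members were tested. The 2.24% is therefore no like background for the members. In that authors' deposited table the q-value was 0.16 for Npc2, 0.773 for Arsb and 0.548 for Psap.

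Other lysosomal genes were read from 4 wider lists. The counts of each list stand beside 20.8% of all tested genes called in KO1 and 22.5% in KO2. Of 25 tested hydrolases and cofactors outside the members 4 rose and 1 fell in KO1, and 6 rose and 3 fell in KO2. Hgsnat, which acetylates heparan sulfate, rose 1.68-fold in KO1 and 1.47-fold in KO2, from 92.9 ± 11.2 to 156 ± 1.64 and 137 ± 28.9 reads (limma adjusted p = 5.25e-07 and 0.000204), and its KO2 libraries overlapped Control. Ctbs (di-N-acetylchitobiase) rose 1.71-fold in KO1, from 20.5 ± 5.39 to 35.2 ± 1.43 reads (adjusted p = 0.00741). Arsg (arylsulfatase G) rose in KO1, where 56 reads were seen against 3 in Control. Scaled for depth, these pooled reads had a ratio of 19.7 (95% counting interval 6.4 to 98.3). The ratio of group means of normalised reads was 19.1.

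Of 22 tested membrane proteins in the second list 1 rose and 4 fell in KO1, and 3 rose and 3 fell in KO2. Abcd4, a cobalamin transporter gene on chromosome 12, rose 2.07-fold in KO2 from 46.2 ± 9.95 to 95.7 ± 9.26 normalised reads (limma adjusted p = 3.42e-07). Tpcn2, an endolysosomal ion channel, rose 1.80-fold in KO2 from 28.3 ± 11.5 to 50.9 ± 15.2 reads with overlapping libraries (adjusted p = 0.00209). Tmem9 fell 1.62-fold in KO1 from 29.5 ± 3.36 to 18.2 ± 3.23 reads (adjusted p = 0.0227), and the amino acid transporter gene Slc36a1 fell 1.43-fold in KO2 from 78.4 ± 4.17 to 54.8 ± 6.88 (adjusted p = 0.00401).

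Genes of mannose 6-phosphate tagging and sorting had 20 tested members, of which 4 rose and 2 fell in KO1 and 5 rose and 1 fell in KO2. Igf2r, the larger mannose 6-phosphate receptor, rose 1.92-fold in KO1 and 1.46-fold in KO2, from 484 ± 15.5 to 926 ± 41.5 and 707 ± 4.61 normalised reads (limma adjusted p = 1.04e-23 and 3.31e-14). Sorl1, a sorting receptor, fell 1.29-fold in KO1 and 1.98-fold in KO2, from 547 ± 18.5 to 423 ± 38.7 and 276 ± 27.1 reads (adjusted p = 8.76e-06 and 3.69e-19). Ap1s1, a subunit of the AP-1 clathrin adaptor, rose 1.39-fold and 1.57-fold (adjusted p = 9.15e-11 and 1.05e-15). Lrp1, an endocytic receptor, rose 1.31-fold and 1.16-fold (adjusted p = 7.11e-15 and 7.81e-07).

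In the list of lysosomal transcription and mTORC1 docking 4 of 19 tested genes rose and 1 fell in KO1, and 3 rose and 4 fell in KO2. Mitf rose 1.52-fold in KO1 and 1.26-fold in KO2, from 176 ± 10.7 to 269 ± 23.0 and 222 ± 10.8 normalised reads (limma adjusted p = 1.37e-08 and 0.00102). Its relative Tfec had 0 reads in Control and 101 and 93 reads in KO1 and KO2, at least 35.3-fold and 33.4-fold higher against a limit of 3 reads over the group. Flcn (folliculin), which acts on RagC to hold TFEB and TFE3 in the cytoplasm, fell 1.4-fold in KO2 from 93.5 ± 8.72 to 66.7 ± 8.4 reads (adjusted p = 0.0037). Lamtor4, a subunit of the Ragulator complex, fell 1.49-fold in KO2 from 44.1 ± 2.14 to 29.5 ± 3.08 reads (adjusted p = 0.0229). Over the 4 lists together 13 of 86 tested genes rose and 8 fell in KO1, and 17 rose and 11 fell in KO2, with medians of 0.064 and 0.033. The called shares of 24.4% in KO1 and 32.6% in KO2 stand beside 20.8% and 22.5% of all tested genes.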

How the data were processed

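RNA-seq of 9 libraries was analysed from the deposited tables. The submitters' processing notes name edgeR 3.20.1, featureCounts 1.4.6, Cufflinks 2.1.1, TopHat2 2.0.22 and the build mm10, without role or order. The main deposited table is a signal: each library's reads per gene, scaled by the authors with a single factor (named TMM). All values (100%) were whole multiples of 1 step per library within 1e-06, so whole reads were recovered. The deposited FPKM values and the authors' p-values and q-values were scaled or tested by the authors within tables of 2 groups. Columns were matched by the names in the labels, and 3 columns of a further table that fitted labels of both clones were not used.

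Log2(normalised reads + 1) was fitted by limma 3.58.1 (R 4.3.3, trend) with all 9 libraries and a group term, for genes with at least 10 in 3 or more libraries, with Benjamini-Hochberg adjustment over all genes. Folds are ratios of group means, and log2 changes have SE from the fit. The procedure was tested on simulated data, with folds larger than those of most called members, so that test does not cover the small folds. Library values are printed for members called with a log2 change of at least 0.3 and for other called members. From each wider list up to 4 called genes are named, those with the largest change in either clone and at least 10 reads in the higher group. One gene that this rule picks is not reported here. Values of uncalled members, and Ifit2 and Isca2, were picked after their values were seen. The members and lists were chosen with earlier results of these data known. Alternatives were other scalings, filters and a pseudocount of 0.1, edgeR 4.0.16, DESeq2 1.42.0 and limma-voom on recovered reads, pairs of groups, a replicate block, leaving out each library, an adjusted p of 0.01, FPKM, and members without chromosome 12. Limits on counts cover counting error only.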

Additional observations from a re-analysis of the deposited data

Results flagged for a closer look

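For 12 members the 2 clones' changes from Control differed from each other, by the limma test of KO2 against KO1 at an adjusted p below 0.05 over all 9564 genes. KO2 lay above KO1 by a log2 difference of 0.87 for Npc2, 0.48 for Cd63, 0.46 for Man2b1 and 0.19 for Gusb. It lay below KO1 by -1.32 for Arsb, -0.53 for Ppt1, -0.48 for Grn, -0.33 for Npc1, -0.25 for Hexa, -0.18 for Lamp2, -0.13 for Lamp1 and -0.10 for Lipa. The call of Lamp1 was lost without KO1 replicate 2 (limma adjusted p = 0.0544) or KO2 replicate 3 (0.0557). That of Lamp2 was lost without KO2 replicate 2 (0.0501) and by DESeq2 (0.0586), and that of Lipa without KO1 replicate 1 (0.14) among others. In this comparison 26.5% of all tested genes were called.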

How the results depend on the processing

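The 3 comparisons gave 29 calls of members, and 21 of them were kept under all alternatives run (20 against Control, 19 between clones, where FPKM was not run). No call was reversed. Calls lost under at least 1 alternative were those of Npc1, Psap, Scarb2 and Ppt1 in KO1, Hexa in KO2, and Lamp1, Lamp2 and Lipa between clones, 6 of these 8 under DESeq2. DESeq2 called 3 members higher in KO1, where limma called 6. With FPKM 1 member was lower in KO1, where 2 were with normalised reads, and Psap was the call lost (adjusted p = 0.0676). The causes were not tested. Leaving out each library gave 5 to 6 members higher and 2 lower in KO1, 3 to 5 higher and 5 to 6 lower in KO2, and 4 to 5 higher and 6 to 8 lower between clones. Without Control replicate 2 the KO2 comparison had 5 higher, with Gusb (0.13, adjusted p = 0.0465) and Asah1 (0.24, adjusted p = 0.029) added. Member medians ran from -0.0086 to 0.037 in KO1, from -0.062 to -0.0079 in KO2 and from -0.11 to -0.061 between clones, and the wider lists had 17 to 22 and 24 to 28 calls. Replicate numbers are shared between groups by name only: residuals of same-numbered libraries had correlations of -0.0171 to 0.0279. A replicate block gave the same counts, 6 higher and 2 lower in KO1, 3 and 6 in KO2, and 4 and 8 between clones. Per kilobase of gene length 16 neighbouring pairs in the Control order did not overlap, 14 in FPKM. Depth limits the low members, whose SE reached 0.22.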
